A study of Bombyx mori with 4 samples.

Results

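The cytosolic ribosomal proteins found in the annotation used for these arrays of silkworm (*Bombyx mori*) testis were 135 probes of 43803. They name 36 genes of the 838 gene symbols used. The source was the study's table of re-annotated probes, of which 1999 of 12981 rows were used here. Further ribosomal protein genes, or further probes of these genes, may be in the rows not used. Such probes, where tested, count below among all rows as single probes. Members are the rows whose description begins with "ribosomal protein", without ribosomal protein kinases. Mitochondrial ribosomal proteins have another description and were not members. The symbols are those of the human homolog, and 32 of the 36 were also the symbol of a silkworm gene in RefSeq (assembly ASM3026992v2), where 77 genes have such a symbol. The members were 20 proteins of the large subunit and 16 of the small subunit, with 71 ESTs behind them, and 15 genes had several ESTs.

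Testis RNA came from larvae on day 3 of the fifth instar, from *op* mutants and from wild-type larvae of the same strain, o751, which shared diet and rearing. *op* is a mutation that makes the larval skin translucent and the males infertile, with high mortality, particularly of pupae. It was placed on a chromosome by linkage, and its gene has not been identified. There were 2 *op* arrays and 2 wild-type arrays, numbered replicate 1 and replicate 2 in each genotype, and the comparison asks which transcripts differ between the genotypes. The methods state a larger number per genotype than the arrays used here, and whether an array held 1 larva or a pool is not given in the sources used here. Where the RNA samples were not separate larvae, the p-values measure only the spread between the samples, which may be technical.

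Ribosomes make all proteins of the cell. The small subunit reads the mRNA, and the large subunit joins the amino acids and lets the new chain out through a tunnel. Each ribosomal protein is usually present once per ribosome, so cells make them in balanced amounts, and growing tissues such as a larval testis with dividing germ cells make many. Their mRNAs are among the most abundant of most cells.

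Each value below is a normalized signal, the log2 of a probe's background-subtracted intensity minus the 75th percentile of its array, and a gene is the mean of its tested probes. A difference is *op* minus wild type on this log2 scale. The 75th percentile was 503.8 to 640.4, no spot was saturated, and the brightest member spot reached 14.5% to 16.6% of the saturation value. Of the 135 member probes, 131 were well above background on all 4 arrays and were tested, which left 35 genes. The remaining gene had no tested probe and no value. Genotypes were compared with limma over 29394 rows, 2 arrays against 2, and an exact permutation test cannot give a p below 0.333 in this design.

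The germ line, muscle and basement membrane marker lists differed in summed signal between the genotypes without overlap, and the digestive enzyme list overlapped. The summed signal of the germ line markers PIWIL4 and NANOS3, in multiples of the 75th percentile, was 4.69 and 4.76 in *op*. In wild type it was 5.85 and 5.65, and all 4 of their probes were above background on every array. PIWIL4 was the larger term, with a log2 difference of −0.32 without overlap, and did not pass the adjusted p. NANOS3 overlapped, with a log2 difference of −0.039. The muscle list was at 4.503 and 6.38 in *op* against 1.54 and 3.05 in wild type, with 1 of 7 probes above background on no array. The basement membrane list was at 6.21 and 7.70 in *op* against 5.48 and 4.83 in wild type. Of its 10 probes, 9 were above background on every array and none was dim on all arrays. LAMA4 was the largest term of that sum and overlapped, with a log2 difference of 0.080. The other 4 genes did not overlap and were higher in *op* by larger log2 differences, though none passed the adjusted p. NID1 was higher by 3.09, COL4A5 by 1.65, COL4A6 by 1.16 and PXDN by 1.02. In wild type NID1 was at −5.47 and −6.08, near background, so the size of its difference is uncertain. COL4A5, at −4.05 and −4.10, and COL4A6, at −4.16 and −4.20, were also low in wild type. The sizes of their differences are less certain for that reason. In the muscle list TPM2 and TNNT3 were higher by 2.25 and 1.78 without passing it, and MYH11 overlapped. The digestive enzyme list was at 14.6 and 15.04 in *op* against 14.8 and 15.6 in wild type. Of its 32 probes, 5 were above background on no array. Its single genes went both ways. Of 10 tested genes, CPA4, CPB1, PNLIP and TMPRSS15 were lower in *op* without overlap, and ANPEP was higher without overlap. Of all rows, 24.9% were lower and 28.8% higher in that way. None of these genes passed the adjusted p. CPA4 was at −6.93 and −5.91 and CPB1 at −5.57 and −5.59 in *op*, and ANPEP was at −4.95 and −5.35 in wild type. At such low levels the distance between the genotypes is uncertain. The part of these cells in the differences below was not tested. In a tissue extract, fewer cells of a type and less RNA per cell cannot be told apart.

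The ribosomal protein genes had differences between *op* and wild-type testis from −0.64 to 0.57. Of 35 genes tested, 0 differed at an adjusted p under 0.05 in limma, and the smallest adjusted p was 0.184. Only 0.32% of all rows passed, so a count of 0 among 35 genes says little about these genes. The methods' t-test on the same values also gave 0 after adjustment, and 3 genes before it. Most genes leaned to *op*: 29 were higher and 6 were lower, and 53.2% of all rows were higher. The median difference was 0.21, with an interquartile range of 0.10 to 0.30, while the median over all rows was 0.031. The genes with an unadjusted p under 0.05 were RPS4X and RPL23, higher in *op*, and RPS18 and RPSA, lower in *op*. That is 4 genes of 35, against 18.6% of all rows, and by direction 10.6% of all rows were higher and 8% lower.

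The groups did not overlap in many genes. Both *op* arrays were above both wild-type arrays in 21 genes, or 60% of those tested, and 28.8% of all rows behaved so. Both were below in 3 genes, or 8.57%, against 24.9% of all rows. The intervals measure the spread between these arrays, which may be technical. In 32 of 35 genes the 95% interval lay inside a 2-fold change either way, as in 66.8% of all rows, most being single probes. The exceptions were RPS14, RPS18 and RPSA. Large and small subunit proteins had similar values, with 17 of 20 and 12 of 15 genes higher in *op* and medians of 0.21 and 0.19.

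**Figure D1:**
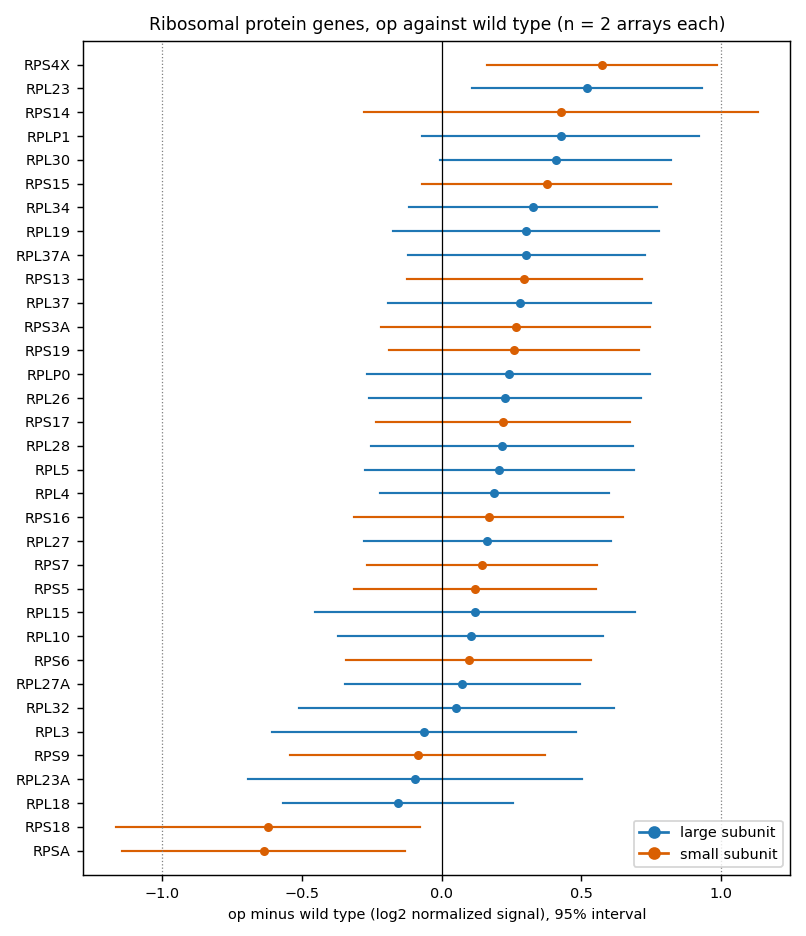
Difference between *op* and wild type for 34 of the 35 tested genes, in log2 normalized signal, ordered by size. Points are differences of the means of 2 arrays, lines are 95% intervals from limma, dotted lines mark a 2-fold change, and most points lie between 0 and 0.57 while RPS18 and RPSA lie near −0.6.

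The lean to *op* rested more on some arrays than on others. *op* replicate 1 was the highest array in 23 genes and wild type replicate 1 the lowest in 27. *op* replicate 2 was the highest in 8 genes and also the lowest in 8. Against the mean of the 4 arrays, the median gene stood at 0.17 and 0.0088 on *op* replicates 1 and 2 and at −0.17 and −0.023 on wild type replicates 1 and 2. *op* replicate 2 and wild type replicate 2 thus lay close together, and the distance between the genotypes came mainly from the arrays numbered 1.

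With *op* replicate 1 left out, the median difference was 0.12, and leaving out wild type replicate 1 gave 0.12 as well. Leaving out *op* replicate 2 gave 0.26, and leaving out wild type replicate 2 gave 0.27. The genes split into 25 higher and 10 lower without *op* replicate 1 and into 32 and 3 without *op* replicate 2. Scaling moved the median as well, to 0.12 with quantile normalization, 0.11 with a shift to the array median, 0.11 with no scaling and 0.12 with actin as the reference. Under these 4 scalings the split was 27 to 8, and the median of all rows went below 0, to between −0.065 and −0.033. The median of the ribosomal protein genes exceeded that of all rows by 0.093 to 0.24 over all the alternatives run.

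**Figure D2:**
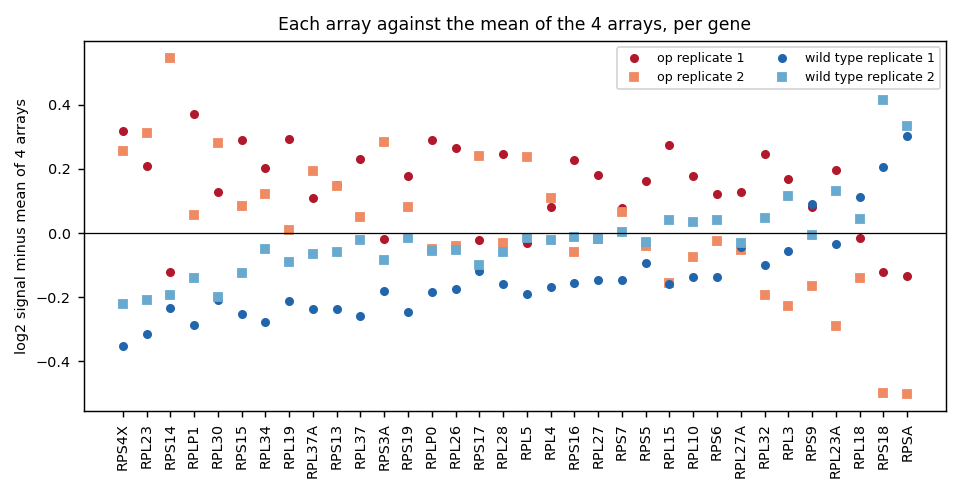
Each array's log2 normalized signal minus the mean of the 4 arrays, for 34 of the 35 genes, ordered by their difference from the highest to the lowest. Wild type replicate 1 lies lowest and *op* replicate 1 highest in most genes, while the arrays numbered 2 lie closer to 0 in many genes.

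**Figure D3:**
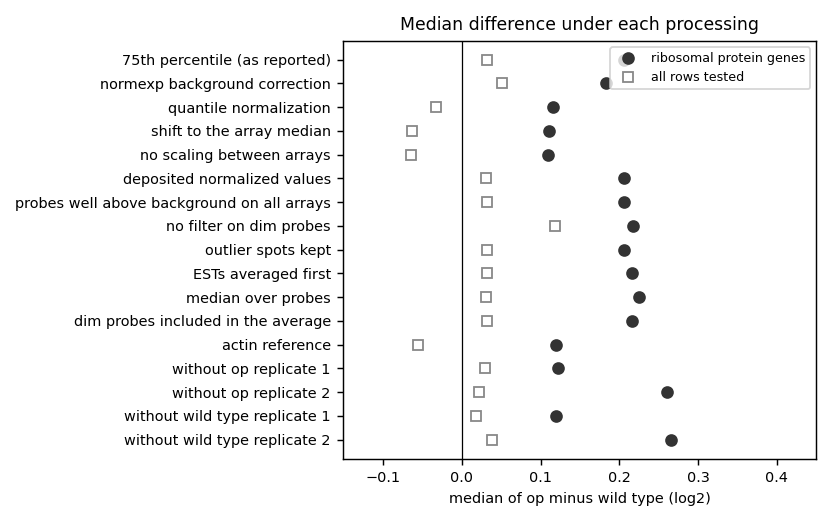
Median of *op* minus wild type, in log2 normalized signal, over the ribosomal protein genes (filled) and over all rows tested (open squares), under each way of processing. The filled points lie between 0.11 and 0.27, and each is to the right of the open square in its line.

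Among the large subunit proteins, RPL23 had the highest difference. RPL23 sits on the face of the large subunit that meets the small one. Its level was −2.34 and −2.24 in *op* against −2.86 and −2.76 in wild type, so the genotypes did not overlap. The difference was 0.52 ± 0.15 (SE, n = 2 arrays each), a fold of 1.44 with a 95% interval of 1.08 to 1.91, and an adjusted p of 0.206 in limma. Both of its probes were higher in *op*, by 0.53 and 0.51. With the normexp background correction the difference of RPL23 was 0.35, below the 0.40 of RPLP1.

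RPLP1, an acidic protein of the stalk that draws elongation factors to the ribosome, was at 2.96 and 2.65 in *op* against 2.31 and 2.45 in wild type, a difference of 0.43 with an adjusted p of 0.318 in limma. RPLP0, the base of the same stalk, was at 7.14 and 6.80 in *op* against 6.67 and 6.79 in wild type. Its second *op* array was at the level of wild type replicate 2, and its difference was 0.24. RPL30 was at −1.80 and −1.65 against −2.14 and −2.13 in wild type, a difference of 0.41 with an adjusted p of 0.272 in limma. All 3 genes had both *op* arrays above wild type.

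The large subunit genes lower in *op* were RPL3, RPL23A and RPL18. RPL3, which lies near the site where peptide bonds form, was at 2.73 and 2.34 in *op* against 2.51 and 2.68 in wild type, a difference of −0.061. RPL23A, at the mouth of the exit tunnel, where targeting factors bind, was at 3.75 and 3.27 in *op* against 3.52 and 3.69 in wild type, a difference of −0.094. In both genes *op* replicate 1 was the highest array and *op* replicate 2 the lowest, so the genotypes overlapped. The 2 ESTs of RPL23A went opposite ways, with differences of −0.32 for Ka02120 and 0.13 for Ka02740. RPL18 was at 0.058 and −0.069 in *op* against 0.19 and 0.12 in wild type, without overlap, and its difference was −0.16. Adjusted p in limma was 0.892, 0.844 and 0.626 for the 3 genes.

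The other 13 large subunit genes apart from RPL4 were all higher in *op*, by 0.052 to 0.33, and in 8 of them the genotypes did not overlap. RPL34 was highest of these, at 3.11 and 3.03 in *op* against 2.63 and 2.86 in wild type. RPL5, which carries one of the ribosomal RNAs into the large subunit, was at −1.64 and −1.37 in *op* against −1.80 and −1.62 in wild type, with overlap. RPL10, which joins the large subunit late in its assembly, was at 6.90 and 6.64 in *op* against 6.58 and 6.75 in wild type, with overlap as well. RPL32 had the lowest value, with a difference of 0.052.

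In the small subunit, RPS4X had the highest difference of all members. RPS4X is a protein of the small subunit's body, with an X-linked gene in humans. It was at −1.35 and −1.41 in *op* against −2.02 and −1.89 in wild type, and the genotypes were well apart compared with their replicates. The difference was 0.57 ± 0.15 (SE, n = 2 arrays each), a fold of 1.49 with a 95% interval of 1.12 to 1.98, and an adjusted p of 0.184 in limma. Its probes gave 0.68 and 0.47. With the normexp background correction the difference of RPS4X was 0.39, below the 0.41 of RPS14 and the 0.40 of RPLP1.

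RPS14 lies on the platform of the small subunit, near the path of the mRNA. It was at 0.81 and 1.48 in *op* against 0.70 and 0.73 in wild type, so its difference of 0.43 came mostly from *op* replicate 2. Without that array the difference was 0.093. RPS15, needed in human cells for late steps of small subunit assembly, was at 2.76 and 2.55 in *op* against 2.22 and 2.35 in wild type. Its difference was 0.38, with an adjusted p of 0.324 in limma, and the genotypes did not overlap.

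RPS9, near the place where the mRNA enters the small subunit, was lower in *op* by 0.085, at −2.21 and −2.46 in *op* against −2.20 and −2.30 in wild type. The direction of RPS9 was not stable. It was higher in *op*, by 0.082, when its dim probes were kept. Another 8 small subunit genes were higher in *op* by 0.097 to 0.30, and 6 of them did not overlap. RPS13 was the highest of these, at 2.99 and 2.99 in *op* against 2.60 and 2.79 in wild type. RPS6, the protein that S6 kinase phosphorylates when nutrients are plentiful, had the lowest difference, with 6.63 and 6.48 in *op* against 6.37 and 6.55 in wild type and overlap between the genotypes.

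RPL4 and RPS16 were represented most often, and so show how far ESTs of 1 symbol agree. They share a symbol and may share sequence, and are not replicates of the genotype. RPL4 lines the exit tunnel, and its 22 probes from 11 ESTs gave a gene level of 4.32 and 4.35 in *op* against 4.08 and 4.22 in wild type. All 11 ESTs and all 22 probes were higher in *op*, the ESTs by 0.11 to 0.26, and 18 probes did not overlap. The gene difference was 0.19 ± 0.15 (SE, n = 2 arrays each), with an adjusted p of 0.561 in limma. It was 0.12 without wild type replicate 1, and 0.093 to 0.11 with no scaling, a shift to the array median, the actin reference or quantile normalization.

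RPS16 has a tail that reaches towards the tRNA on the ribosome. Its 16 probes from 8 ESTs gave 3.94 and 3.66 in *op* against 3.56 and 3.70 in wild type, with overlap, and a difference of 0.17. Of its 8 ESTs 7 were higher in *op*, and the ESTs ran from −0.0073 to 0.27. Without *op* replicate 1 the difference of RPS16 was 0.026, since its *op* replicate 2 was at the level of wild type replicate 2. The EST named Ka02487 was at 0.32 and −0.22 in *op* against −0.24 and −0.21 in wild type.

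**Figure D4:**
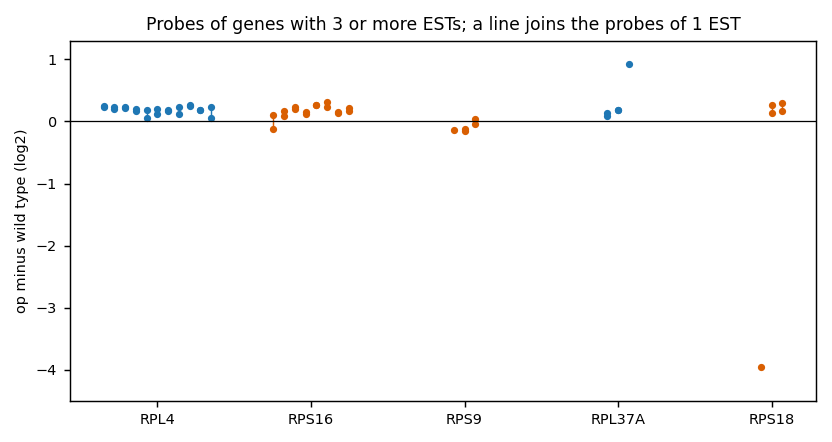
Difference between *op* and wild type, in log2 normalized signal, for each tested probe of RPL4, RPS16, RPS9, RPL37A and RPS18, which have 3 or more ESTs each. A line joins the probes of 1 EST, blue marks the large and orange the small subunit, and the probes lie close to each other except 1 probe each of RPL37A and RPS18.

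The differences of RPS18 and RPSA came from single probes, picked out after their values were seen. RPS18 is a protein of the head of the small subunit, close to the tRNA. As a gene it was at 2.73 and 2.35 in *op* against 3.06 and 3.27 in wild type, a difference of −0.62 with an adjusted p of 0.233 in limma. Its probe Ka00662_651, the only probe of its EST, was at −4.04 and −5.03 in *op* against −0.83 and −0.33 in wild type. Its difference was −3.96, far larger than the spread of its replicates, with an adjusted p of 0.0612 in limma over single probes. Its background-subtracted signal was 30.6 and 19.6 in *op* against 361.2 and 456.7 in wild type, and with the normexp background correction its difference was −2.34.

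The other 4 probes of RPS18 were all higher in *op*, by 0.13 to 0.29, with a mean of 0.21. So the lower value of RPS18 was that of 1 EST, and the size and direction of the gene value depended on how probes were combined. The difference of RPS18 was 0.26 as the median over probes, −0.30 with normexp and −1.18 with ESTs averaged first. Whether Ka00662_651 belongs to the same transcript as the other probes was not tested. Its adjusted p was 0.0102 to 0.0209 in the alternatives that called it and 0.0102 to 0.314 over all 17 alternatives run.

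RPSA, a surface protein of the small subunit near the mRNA exit that in mammals is also known as the laminin receptor, was at 0.49 and 0.12 in *op* against 0.93 and 0.96 in wild type. Its difference was −0.64, with an adjusted p of 0.207 in limma. Probe Ka02573_6 was at 2.27 and 1.66 in *op* against 3.25 and 3.15 in wild type, a difference of −1.24. Probe Ka02573_59 of the same EST was at −1.29 and −1.42 in *op* against −1.40 and −1.24 in wild type, a difference of −0.035 with overlap. The probes of this EST thus did not move together.

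RPL37A, a small protein of the large subunit, had 1 probe apart from the others in the other direction, also picked out after its values were seen. Probe Ka02599_390 of RPL37A was at −4.32 and −3.06 in *op* against −4.67 and −4.57 in wild type, so its difference of 0.93 came mainly from *op* replicate 2. These levels were low, so the size of that difference is less certain. The other probes of RPL37A were higher in *op* by 0.080 to 0.19. As a gene, RPL37A was higher by 0.30, with an adjusted p of 0.385 in limma.

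**Figure D5:**
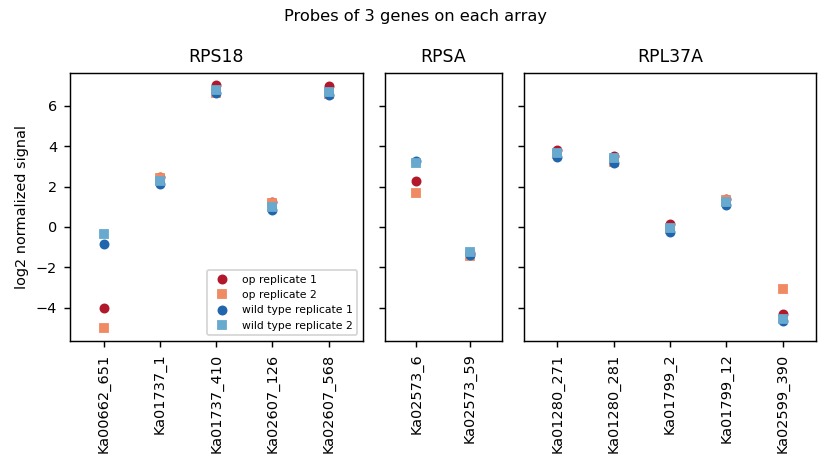
Log2 normalized signal of each tested probe of RPS18, RPSA and RPL37A on the 4 arrays. Probe Ka00662_651 lies lower in both *op* arrays and Ka02573_6 lies lower as well, while Ka02599_390 lies higher on *op* replicate 2, and levels of different probes are not comparable.

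Over single probes, 0 of 131 differed at an adjusted p under 0.05 in limma. Only 0.316% of all probes did, so this count says little about the member probes. An unadjusted p under 0.05 was found for 8, or 6 higher and 2 lower, against 18.7% of all probes, 10.6% higher and 8.04% lower. They included the probes above of RPS18 and RPSA, both of RPL23 and 1 each of RPS4X, RPL26 and RPL30. The probes leaned as the genes did, with 111 higher and 20 lower and a median of 0.19. Both *op* arrays were above both wild-type arrays in 67 probes and below in 4, and 28.8% and 24.9% of all probes were so. The 95% interval lay inside a 2-fold change in 122 probes of 131, and in 67% of all probes.

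Probes of 1 EST gave like differences when their numbers in the probe ID lay close. The 40 pairs with numbers under 60 apart, 60 being the length of a probe, differed by a median of 0.043, and 1 pair, that of RPSA, differed by over 0.3. The 22 pairs farther apart differed by a median of 0.12, and 2 were over 0.3. In RPL26 the probes of 1 EST gave 0.47 and −0.088, and in RPL18 they gave −0.41 and 0.099. All 5 such pairs of RPL4 were higher at the probe with the larger number, by 0.029 to 0.17. That this number is the position in the EST was assumed here.

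The ribosomal protein probes varied less between replicates than other probes did. For the member probes, the log2 values of a genotype's replicates differed with an SD of 0.32 in *op* and 0.13 in wild type. For all tested probes the SDs were 0.69 and 0.36. A difference between replicates of more than 2-fold was found in 1 member probe, Ka02599_390 of RPL37A in *op*, and in 0 in wild type. The replicates differed in 1 direction: *op* replicate 1 was above *op* replicate 2 in 27 of 35 genes, and wild type replicate 1 was above wild type replicate 2 in 2 of 35. Replicates were not compared at matched signal.

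The lists of ribosome assembly, mitochondrial ribosomal protein and translation factor genes had medians nearer to 0. RSL24D1, an assembly factor that resembles a large subunit protein, was at 2.82 and 2.91 in *op* against 2.48 and 2.67 in wild type, a difference of 0.29. It did not pass the test, with an adjusted p of 0.408 in limma.

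Of 18 genes of ribosome assembly 0 passed the test, 10 were higher in *op*, and the median was 0.029. NOP58, a core protein of the particles that modify ribosomal RNA, had the highest difference, 0.70, with an adjusted p of 0.176 in limma. It was low on all 4 arrays, at −3.54 and −3.59 in *op* against −4.43 and −4.11 in wild type. The size of its difference is less certain for that reason. NOB1, the nuclease that completes the small subunit RNA, had the lowest, −0.21. Of 7 mitochondrial ribosomal proteins 0 passed the test and the median was 0.051, between −0.12 for MRPS18B and 0.15 for MRPL12.

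Of 18 translation factors 17 were tested and 0 passed, and their median was −0.092, with 7 higher in *op*. EEF1A1, which brings tRNA to the ribosome, was highest at 2.68 and 2.42 in *op* against 2.31 and 2.39 in wild type, a difference of 0.20. DENR, which helps ribosomes to start again and to be recycled, was lowest at 3.78 and 3.41 in *op* against 4.03 and 4.15 in wild type, a difference of −0.49 with an adjusted p of 0.283 in limma. The differences between the medians of these lists and that of the ribosomal proteins were not tested.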

How the data were processed

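The authors labeled testis RNA with Cy3, hybridized it to 1-color arrays and read the spots with Agilent Feature Extraction 9.5, named in the submitters' processing notes. The deposited scanner output gives each spot an intensity from which the background was taken off, and marks dim, saturated and outlying spots. The authors' deposited normalized values, on the log2 scale, were used as an alternative. Their own fold changes and p-values were not used.

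From the processed signal, log2 minus the 75th percentile of each array was taken, without control spots and spots with an outlier flag. Tested probes were well above background on both arrays of either genotype. This left 30376 of 43803 probes. Tested probes with a symbol in the rows used were averaged, other probes stayed as they were, and the 29394 rows were fitted with limma 3.58.1 in R 4.3.3 (lmFit and eBayes, genotype only, two-sided, Benjamini-Hochberg over all rows, prior degrees of freedom 2.54). The fit was tested on simulated data. The arrays were on 1 slide with 1 scan, and their number limits the precision.

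The members and gene lists were chosen with earlier results of these data known. Genes named are those with an adjusted p under 0.05, the 6 largest rises and 6 largest falls, genes whose probes span over 1, RPL4 and RPS16, and the top rise and fall of each list of genes of the ribosome and translation. Other members named as examples of a role, or as the ends of a range, and the probes outside this rule were picked after their values were seen. Alternatives were normexp (on spot medians, offset 50), other scalings, filters, averages and fits, the methods' t-test, a replicate block, and each array left out. The actin reference was added after seeing the data. Some results on named genes are left out and not reported here.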

Additional observations from a re-analysis of the deposited data

How the results depend on the processing

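No ribosomal protein gene passed an adjusted p of 0.05 under any of 20 alternatives, the leave-one-out fits included, where the lone array is assumed to vary like the other genotype. The methods' t-test gave 3 genes and 6 probes at an unadjusted p under 0.05 and 0 after adjustment. The median difference stayed above 0, from 0.11 to 0.27. Single probes passed in some settings: 1 with normexp, 1 with the trend and robust fit and 1 with the replicate block, each Ka00662_651 of RPS18, and 0 to 3 when an array was left out (3 without *op* replicate 1, 2 without *op* replicate 2). Those added were Ka02573_6 of RPSA in both and Ka02599_390 of RPL37A without *op* replicate 1. The replicate numbers pair the samples by number only, the correlation of same-numbered deviations being −0.032 over all rows. With that block, 0 ribosomal protein genes passed, and all rows passing were 696 in place of 94. All rows passing ran from 0 to 2223, with 0 without a filter on dim probes, 391 with normexp and 15 with quantile normalization.

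Directions turned for genes near 0 and for RPS18. RPL18 was 0.075 with normexp. RPS9 was 0.082 with no filter, 0.082 with dim probes in the average and 0.13 as the median over probes, and RPS18 was 0.26 as the median over probes. With an array left out, RPL3 ran from −0.26 to 0.14, RPS9 from −0.21 to 0.039 and RPL23A from −0.34 to 0.15. RPL3 was above 0 when *op* replicate 2 or wild type replicate 2 was left out, and RPS9 and RPL23A when *op* replicate 2 was. The cause was not tested, apart from RPS18, where 1 probe of 5 sets the mean. Signal over background limited 4 member probes, which were not tested.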
